A study of Mus musculus with 23 samples.

Results

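10 genes that mark brown fat or control its heat production were followed through a table of 24029 genes measured in 6 RNA libraries. They were picked as a list of names with no threshold on their values, although earlier results of these data were known, and all 10 are in the table. They are Ucp1, Dio2, Kcnk3, Cox7a1, Cox8b, Prdm16, Ppargc1a, Ppargc1b, Esrra and Ppara. The libraries come from C3H10T1/2, an established line of mouse mesenchymal stem cells able to become adipocytes in culture. Per the labels' protocol, cells were grown with 8.3 nM BMP7 for 3 days before differentiation, and day 0 stands for pre-adipocytes. An induction mix up to day 2 held 5 uM DEX, 0.5 mM IBMX, 0.12 ug/ml insulin, 1 uM of a compound labelled Rosi and 1 nM T3. Insulin, Rosi and T3 were then kept until day 7, the mature adipocytes.

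The groups are standard day 0, standard day 7, TELP N9 day 0, TELP N9 day 7, TELP N9_ss day 7 and TELP T18 day 7, with 1 library each. TELP is a way of making sequencing libraries, and what N9, ss and T18 stand for is not in the labels. All groups share the cell line, and nothing in the labels says that they came from separate cultures. The other 17 of the 23 samples are chromatin immunoprecipitation libraries and were not analysed here. Every group being a single library, no difference below has a replicate error. The values are the authors' RPKM, reads scaled to gene length and read total. A gene was called different at 1 log2 unit or more on the log2(RPKM + 1) scale, provided that it averaged at least 1 RPKM over the libraries compared. An exact 0 can be a failed estimate, so such a gene is said to be listed at 0.

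Brown fat burns fuel to make heat. In the classical pathway a beta-adrenergic signal raises cyclic AMP, lipolysis releases fatty acids, and the inner membrane carrier UCP1 lets protons return to the mitochondrial matrix without making ATP. PRDM16 is a coregulator of brown fat identity. The coactivators PGC-1alpha and PGC-1beta, encoded by Ppargc1a and Ppargc1b, act with nuclear receptors such as ERRalpha and PPARalpha on genes of mitochondria and fatty acid oxidation. DIO2 converts the hormone T4 into the more active T3 inside the cell.

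Some properties of the libraries bear on all that follows. Relative to TELP N9 day 7, estimated depth was 2.61 and 2.58 for standard day 0 and day 7, 4.11 for TELP N9 day 0, 1.05 for N9_ss and 0.866 for T18. In T18 the 10 most abundant genes held 79.8% of the summed RPKM, against 7.56% to 32.8% in the other libraries. For 4 of the 10 genes (Ucp1, Ppargc1a, Prdm16 and Dio2) N9_ss and N9 differed by exactly the ratio of what 1 read is worth, so their read numbers were equal. N9_ss was therefore not counted as a second library, and 0 of the 10 genes were called between it and N9, where 0.0194% of 10334 genes were called higher. Adipocyte markers summed to 75.6 and 58.1 RPKM at day 0 and to 15386 and 33499 at day 7 in standard and TELP N9. Of 10 such markers, 10 were called higher at day 7 in both types. Fewer cells of a type and less RNA per cell cannot be told apart in such bulk samples.

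**Figure D1:**
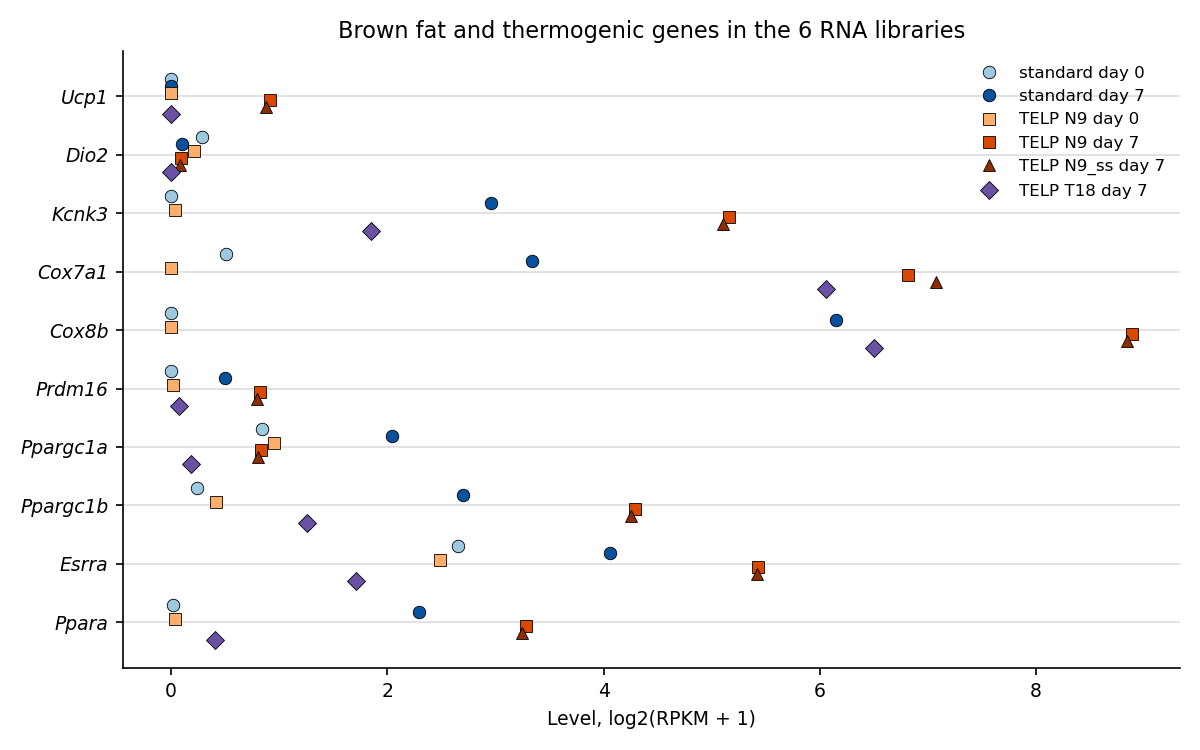
Level of each of the 10 genes in the 6 RNA libraries, as log2(RPKM + 1), with 1 symbol per library and no error bar because each group is 1 library. Cox8b and Cox7a1 reach the highest levels in TELP N9 day 7 (472 and 112 RPKM), and Ucp1, Prdm16 and Dio2 stay under 1 RPKM in all 6 libraries.

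From day 0 to day 7 most of these genes were higher in both library types. 7 of the 10 were called higher in the standard libraries, where 8.22% of 11312 genes were called higher, and 6 of the 10 in the TELP N9 libraries, where 13.9% of 11360 genes were. The same 6 were called in both types (Cox8b, Cox7a1, Kcnk3, Ppargc1b, Ppara and Esrra), and 0 were called lower in both. Only Esrra could have been called lower. The other genes lay under 1 RPKM at day 0, from where a fall of 1 log2 unit on this scale is not possible. Over all genes 7.23% of 11474 were called higher in both and 5.81% lower in both. Without the filter on low values the share higher in both was 3.47% of 24029. Of the 6 genes, Esrra alone passed the filter at day 0 levels, and the other 5 passed only through their day 7 values. The 10 genes together had a median difference of 1.84 (standard) and 3.09 (TELP N9), with no filter. Beside these stand -0.18 and -0.45 for all genes kept, and 0 and -0.0004 for all genes without the filter.

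**Figure D2:**
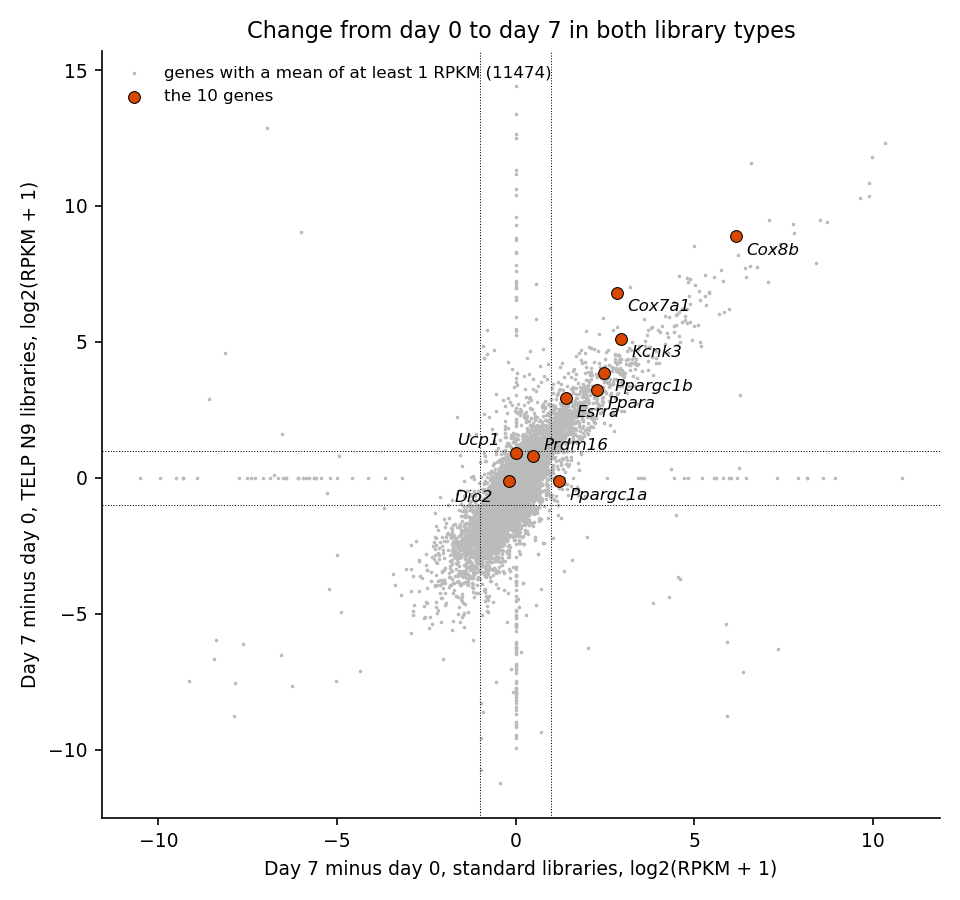
Difference between day 7 and day 0 in the standard libraries (x axis) and the TELP N9 libraries (y axis), both of log2(RPKM + 1), with 1 grey point for each of 11474 genes above the filter and 1 orange point for each of the 10 genes. Dotted lines mark differences of 1 and -1, and the 6 genes called in both types lie beyond 1 on both axes, while Ppargc1a lies beyond 1 on the x axis only.

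The limma fit with library type as a block gave these differences a spread. It uses 4 libraries and has 1 residual degree of freedom. Its spread is how far the day 7 minus day 0 difference disagreed between library types, pooled in part over all genes. It is not a spread between replicates. Of the 10 genes 7 could be tested, and 0 passed a false discovery rate of 0.05, although 6 had an unadjusted p under 0.05. Over all 11474 genes 94 passed, 82 of them higher (0.715% of those tested), and 3014 had an unadjusted p under 0.05. Cox8b came nearest, at a log2 difference of 7.52 (SE 0.74) with a limma adjusted p of 0.0508, and was higher in 2 of 2 library types. Other moderation settings of limma, chosen after seeing the data, put it on both sides of the threshold (adjusted p 0.0344 with a trend, 0.0462 with a robust spread, 0.0583 with both). The limma adjusted p was 0.0739 for Ppara, 0.0787 for Ppargc1b, 0.0855 for Kcnk3, 0.121 for Cox7a1, 0.126 for Esrra and 0.438 for Ppargc1a.

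Among the effectors, Ucp1 and Dio2 were scarce. Ucp1 was at 0.882 RPKM in TELP N9 day 7 and 0.843 in N9_ss. It was listed at 0 in standard day 0, standard day 7, TELP N9 day 0 and TELP T18 day 7, and no value above 0 was thus given outside N9 and its N9_ss counterpart. Dio2 went from 0.223 RPKM at day 0 to 0.0753 at day 7 in standard and from 0.157 to 0.0647 in TELP N9, with 0.0618 in N9_ss, and was listed at 0 in T18. These levels fit 9, 3, 10, 1, 1 and 0 reads in that order. These are the smallest whole numbers that fit, and true numbers could be a multiple of them. The exact Poisson 95% intervals, which cover counting error only, overlap between days: 0.102 to 0.423 RPKM at standard day 0 and 0.0155 to 0.220 at standard day 7. They rest on the smallest read numbers, and overlap of intervals is not a test. Whether Dio2 changed between days was thus not settled.

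Kcnk3, which encodes the two-pore potassium channel TASK-1 found in thermogenic fat, was nearly absent before differentiation, at 0.00214 RPKM (standard) and 0.0245 RPKM (TELP N9). At day 7 it was at 6.79 in standard, 34.8 in N9, 33.3 in N9_ss and 2.61 in T18. All day 7 libraries lay above both day 0 libraries, and the differences were 2.96 (standard) and 5.13 log2 units (TELP N9).

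Cox7a1 and Cox8b encode subunits of cytochrome c oxidase (COX), the last enzyme of the respiratory chain, in the forms known from heart, muscle and brown fat. At day 0 both types listed Cox8b at 0, and at day 7 it was at 70.2 RPKM in standard, 472 in N9, 456 in N9_ss and 89.4 in T18. Its day 7 rank among 24029 genes was 877 in standard and 116 in TELP N9. Cox7a1 was at 0.427 RPKM in standard day 0, which fits 1 read, and was listed at 0 in TELP N9 day 0. At day 7 it was at 9.10 in standard, 112 in N9, 134 in N9_ss and 65.8 in T18. The standard day 7 value fits 21 reads, with an exact Poisson 95% interval of 5.63 to 13.9 RPKM that lies below the N9 and T18 values. Cox7a1 had the largest difference between library types at day 7 among the 10 genes.

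Promoter stretches of these effectors are shown because Cox7a1 and Cox8b were called higher in both library types while Ucp1 and Dio2 were not. The RefSeq promoter table (GRCm38.p6) matched 8 of the 10 genes. Each line gives the 120 bases just before the start of the gene on its own strand, 5′ to 3′, with capitals marking the cyclic AMP response element TGACGTCA. Positions are chr8:83290228-83290347 on the + strand for Ucp1, chr7:30184051-30184170 on the + strand for Cox7a1, chr7:140900447-140900566 on the - strand for Cox8b and chr12:90739039-90739158 on the - strand for Dio2.
Ucp1: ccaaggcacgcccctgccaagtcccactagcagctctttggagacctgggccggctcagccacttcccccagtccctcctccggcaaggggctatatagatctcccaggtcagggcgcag
Cox7a1: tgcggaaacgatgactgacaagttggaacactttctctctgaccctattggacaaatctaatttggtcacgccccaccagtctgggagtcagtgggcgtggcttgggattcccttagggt
Cox8b: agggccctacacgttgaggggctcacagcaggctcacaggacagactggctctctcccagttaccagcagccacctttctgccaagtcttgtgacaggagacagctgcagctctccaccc
Dio2: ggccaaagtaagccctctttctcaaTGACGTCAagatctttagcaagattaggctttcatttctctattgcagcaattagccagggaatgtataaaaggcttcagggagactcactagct
In windows of 250 bases before to 50 after the start, the cyclic AMP response element was found in Dio2 alone among the 8, its first base 95 bases before the start. It was present in 1.79% of 32851 promoters on either strand, and reads the same on both. Binding elements of ERR (TCAAGGTCA, in 0.423% of promoters) and the direct repeat DR1 (AGGTCA, any 1 base, AGGTCA, in 0.0396%), to which PPAR and RXR pairs bind, were found in 0 of the 8. At shares this low, 0 of 8 says nothing about these genes. For all 3 motifs only exact letters within these windows were searched, so sites with other letters or further away were not covered. No motif overlapped another here.

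COX isoforms were also compared within libraries, where a scaling factor common to all genes cancels. Cox7a2 and Cox8a are the widely expressed counterparts of Cox7a1 and Cox8b. Of the summed RPKM of Cox7a1 and Cox7a2, Cox7a1 made up 0.857% at day 0 and 6.30% at day 7 in standard, against 0% and 28.7% in TELP N9, 29.8% in N9_ss and 32.7% in T18. The share was thus higher at day 7 in both types, and at day 7 the N9 and T18 values both lay well above the standard one. For Cox8b within Cox8b and Cox8a the share was 0% at day 0 in both types, 10.7% in standard day 7, 15.7% in N9, 15.6% in N9_ss and 17.0% in T18. The shift between types was smaller for this pair. The counterparts were higher at day 7 as well: Cox8a went from 195 to 583 RPKM (standard) and from 252 to 2523 RPKM (TELP N9). Cox7a2 went from 49.4 to 135 and from 63.0 to 278. Of 10 other COX isoform genes, 6 were called higher in both types and 0 lower, beside 7.23% and 5.81% of all genes kept.

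**Figure D3:**
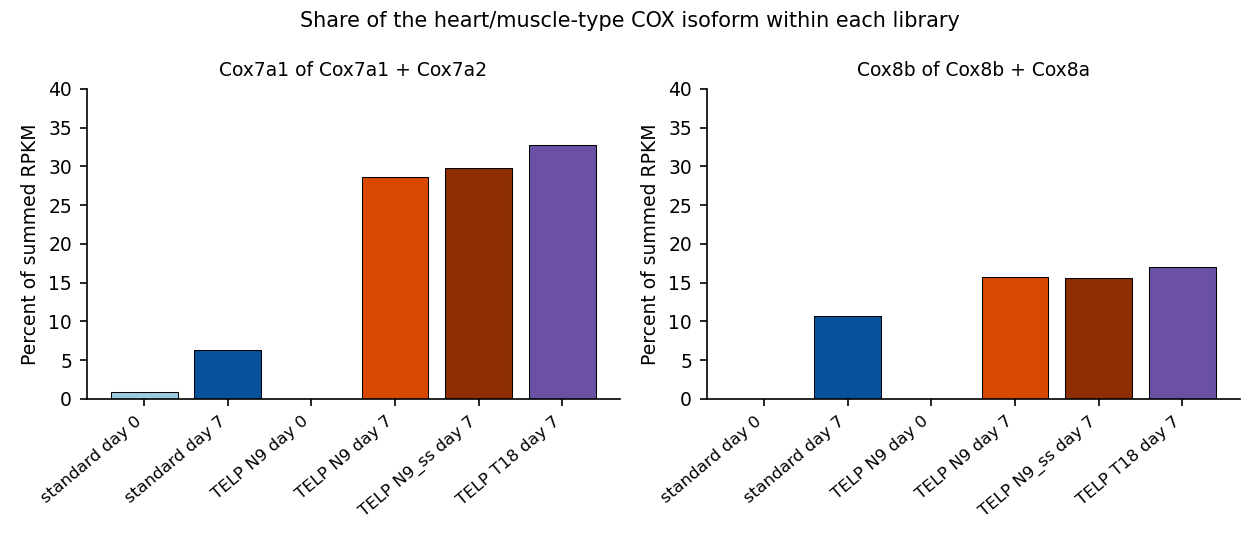
Bars give the percent of summed RPKM held by Cox7a1 within Cox7a1 and Cox7a2 (left) and by Cox8b within Cox8b and Cox8a (right) in each of the 6 libraries, with 1 library per bar and no error bar. Cox7a1 stands at 6.30% in standard day 7 against 28.7% to 32.7% in the TELP day 7 libraries, and Cox8b at 10.7% against 15.6% to 17.0%.

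Prdm16 stayed low but was detected with more reads at day 7. It was listed at 0 in standard day 0 and was at 0.0107 RPKM in TELP N9 day 0. At day 7 it was at 0.411 in standard, 0.772 in N9, 0.738 in N9_ss and 0.0510 in T18. These values fit 0 and 2 reads at day 0 and 48, 35, 35 and 2 at day 7. Exact Poisson 95% intervals were at most 0.0311 and 0.0387 RPKM at day 0, and 0.303 to 0.545 in standard and 0.538 to 1.07 in N9 at day 7, so the days did not overlap in either type. The interval of T18, 0.00617 to 0.184, overlapped that of TELP N9 day 0. On the log2(RPKM + 1) scale the differences were 0.50 and 0.81, under the threshold, and Prdm16 did not pass the filter. Its paralog Mecom was at 23.4 RPKM in both day 0 libraries and at 11.9 in standard and 2.45 in N9 at day 7, a difference of -0.92 and -2.82. Of 9 genes for partners of PRDM16, 1 was called higher in both types and 0 lower, close to the 7.23% and 5.81% of all genes kept. It was Cebpb, an early adipogenic transcription factor, with differences of 1.24 (standard) and 2.74 (TELP N9).

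The coactivators Ppargc1a and Ppargc1b parted. Ppargc1b stood at 0.181 RPKM (standard) and 0.338 RPKM (TELP N9) at day 0, and at day 7 it was at 5.51 in standard, 18.6 in N9 and 1.40 in T18, with N9_ss differing from N9 by -0.04 log2 units. Each day 7 library lay above both day 0 libraries, and the ratios of day 7 to day 0 were 30.4 and 55.1. Ppargc1a, the form best known for its response to cold, went from 0.787 to 3.13 RPKM in standard, a ratio of 3.98. In TELP N9 it was at 0.939 at day 0 and 0.783 at day 7, a ratio of 0.834, with 0.748 in N9_ss and 0.134 in T18. Its difference was 1.21 log2 units in the standard pair and -0.12 in the TELP N9 pair, where the small negative sign turns to 0.11 under scaling by median of ratios and 0.34 under quantile normalization. Ppargc1a was the only one of the 10 called in one type and not the other.

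The balance within this pair was examined after the values were seen. At day 0 Ppargc1b held 18.7% (standard) and 26.4% (TELP N9) of the summed RPKM of both genes. At day 7 it held 63.8% in standard, 96.0% in N9, 96.0% in N9_ss and 91.3% in T18. It was the minor form in both day 0 libraries and the major form in standard, N9 and T18 at day 7. The same held in N9_ss, which is not counted as a separate library. The third family member, Pprc1, differed by -0.49 log2 units in both types.

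The nuclear receptor Esrra, which encodes ERRalpha, was the one gene of the set well expressed at day 0. Its day 0 level was 5.31 RPKM (standard) and 4.60 RPKM (TELP N9), and at day 7 it was at 15.7 in standard, 42.0 in N9 and 41.9 in N9_ss. T18 was at 2.26 RPKM, below both day 0 libraries in the deposited values. No T18 library of day 0 exists, and most genes were lower in T18 than in N9. Under median of ratios T18 minus N9 was -1.88, and TELP N9 day 7 minus day 0 was 3.33. Under quantile normalization these were -1.56 and 3.16. Under both scalings Esrra in T18 thus lay above TELP N9 day 0. The ratio of day 7 to day 0 was 2.95 (standard) and 9.14 (TELP N9). Of its relatives, Esrrb was listed at 0 in all 6 libraries and Esrrg was at most 0.355 RPKM.

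Ppara, the fatty acid sensor PPARalpha, was at 0.00991 RPKM (standard) and 0.0252 RPKM (TELP N9) at day 0, which fit 1 and 4 reads. At day 7 it was at 3.91 in standard, 8.73 in N9, 8.47 in N9_ss and 0.329 in T18. The differences were 2.28 and 3.25 log2 units. All day 7 values exceeded the day 0 values, that of T18 by the least. Pparg, its relative that drives adipogenesis, was far more abundant, at 73.0 RPKM in standard day 7 and 99.2 in N9. Ppard differed by 0.14 and 0.72 log2 units and was called in neither type.

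Genes that act with the set were described by lists. Here and in the lists below, counts called in both types stand beside 7.23% higher and 5.81% lower of all 11474 genes kept. T18 does not enter these counts. Of 22 other brown fat markers 7 were called higher in both types and 1 lower, with medians of 0.45 and 0.90 over all 22. Over the 15 that passed the filter the medians were 0.73 and 2.46, beside -0.17 and -0.46 for all 11474 genes kept. Cpt1b, which carries fatty acids into mitochondria, was higher by 3.80 (standard) and 5.56 log2 units (TELP N9). Elovl3, a fatty acid elongase induced by cold, was higher by 2.32 and 5.28, Cidea, a lipid droplet protein, by 1.98 and 5.39, and Pdk4, a brake on glucose oxidation, by 2.68 and 4.09. In T18 Cpt1b was at 0.546 RPKM and Cidea at 1.09, above both day 0 libraries. Elovl3 was at 0.125 there, beside 0.105 in TELP N9 day 0. Pdk4, at 6.17 in T18, was below both day 0 libraries in the deposited values. S100b, named after its values were seen, was the 1 called lower (-1.15 and -2.11). The developmental markers Zic1 and Lhx8 were at most 0.133 and 0.119 RPKM. Ebf2 of the same list was at 0.861 (standard) and 0.788 RPKM (TELP N9) at day 0. At day 7 Ebf2 was at 0.463 in standard, 1.26 in N9 and 0.158 in T18. Zic1, Lhx8 and Ebf2 were also named after their values were seen.

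Most targets of PPARalpha and ERRalpha were higher at day 7, as were the 2 receptor genes. 14 of 16 were called higher in both types and 0 lower, with medians of 2.38 and 3.53 over all 16. Acaa1b, a peroxisomal thiolase, was higher by 4.87 and 7.33 log2 units. Ehhadh, of peroxisomal oxidation, was higher by 5.70 and 6.03, Idh3a of the citric acid cycle by 2.93 and 4.25, and the secreted hormone Fgf21 by 2.52 and 4.61. In T18 Ehhadh (7.70 RPKM), Acaa1b (11.6) and Idh3a (17.7) lay above both day 0 libraries, and Fgf21 was listed at 0. In the wider PGC-1 network 2 of 15 genes were called higher in both and 0 lower, beside 7.23% and 5.81% of all genes kept, namely Lpin1 (2.89 and 4.00) and the retinoid receptor Rxrg (2.36 and 2.39), with medians of -0.11 and 0.02.

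Upstream of Ucp1, 4 of 16 genes of the beta-adrenergic arm were called higher in both types and 0 lower, with medians of 0.13 and 0.73. Adrb3, the adipocyte beta-adrenergic receptor, had 0 RPKM at day 0 in either type and was at 21.6 RPKM in standard and 47.7 in N9 at day 7. The adenylyl cyclases Adcy5 (2.42 and 2.84) and Adcy6 (1.32 and 2.03) and the regulatory subunit Prkar2b (1.99 and 2.97) were the other 3. In T18 Adrb3 was at 7.29 RPKM and Adcy5 at 0.0864, above both day 0 libraries. Adcy6 (1.91) and Prkar2b (18.9) were below both day 0 libraries there in the deposited values. Of 8 repressors of the brown programme 2 were called higher and 0 lower, beside 7.23% and 5.81% of all genes kept. The 2 were Rb1 (1.52 and 2.01) and Nrip1 (1.34 and 1.53). In the thyroid hormone arm 2 of 6 genes were called higher, the T3-responsive Thrsp (4.66 and 6.20) and the transporter Slc16a10 (1.16 and 2.23). The receptor gene Thra was called lower (-1.04 and -2.49).

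Heat production that does not need UCP1 was covered by 13 genes, among them those of creatine cycling, calcium cycling and glycerol recycling. The glycerol kinase gene Gyk was the 1 called higher in both types (2.98 and 3.97), and 0 were lower. That count is near the 7.23% of all genes kept. Among relatives of the 10 genes, 3 of 14 were called higher in both and 0 lower. Ucp2 was higher by 3.78 and 5.53 log2 units and Ucp3 by 2.18 and 2.75, and Pparg by 1.40 and 2.24. At day 7 Ucp2 was at 13.4 RPKM in standard and 46.6 in N9, and Ucp3 at 3.52 and 5.74, all above Ucp1 in the same libraries.

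Markers of other cell types were read beside these. Their counts also stand beside 7.23% higher and 5.81% lower in both types over all genes kept. Of 11 white fat markers 4 were called higher in both types and 1 lower, with Retn, which encodes resistin, at 134 RPKM in standard and 721 in N9 at day 7. Lep was listed at 0 in all 6 libraries. Of 8 beige fat markers 1 was called higher, the amino acid transporter Slc36a2 (5.30 and 7.45), which is also used as a marker of brown fat. Skeletal muscle shares Cox7a1, Cox8b and Ucp3 with brown fat. Of its 12 markers 0 were called higher and 1 lower, their summed level was 5.29 RPKM in standard day 7 and 7.39 in N9, nearly all from Acta1, and Ckm was listed at 0 in all 6 libraries. Endothelial markers summed to at most 11.3 RPKM in any library, in standard day 0, nearly all from Tek (11.2), which was called lower at day 7 in both types. Macrophage markers summed to at most 4.70 in any library, in N9 day 7, where all of it came from Cd68.

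Between library types, day 0 could show little for this set. All but Esrra lay under 1 RPKM in both day 0 libraries, where a difference of 1 log2 unit is not possible. TELP N9 against standard called 0 of the 10 genes at day 0, where 2.2% of 11277 genes were called higher and 0.718% lower, and 1 of the 10 passed the filter. The median difference of the 10 was 0.01, which their low levels keep small. That of all genes kept was also 0.01, and that of all genes without the filter was 0. Esrra differed by -0.17, Ppargc1b by 0.18, Ppargc1a by 0.12 and Cox7a1 by -0.51 log2 units.

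At day 7 the types differed for most of the set. 5 of the 10 genes were called higher in TELP N9, where 7.51% of 11044 genes were, and 1 was called lower, where 17% were. The differences were 3.48 log2 units for Cox7a1, 2.73 for Cox8b, 2.20 for Kcnk3, 1.59 for Ppargc1b and 1.37 for Esrra, and Ppargc1a was lower, at -1.21. The call of Ppargc1a was lost under median of ratios (-0.90) and quantile normalization (-0.75), and those of Esrra (0.62) and Ppargc1b (0.90) under equal totals. Ppara at 0.99 lay just under the threshold, and was over it with a pseudocount of 0.1 RPKM (1.14), median of ratios (1.24) and quantile normalization (1.31) but at 0.33 under equal totals. Prdm16 (0.33), Dio2 (-0.01) and Ucp1 (0.91) did not pass the filter. The median of all 10, with no filter, was 1.18, against -0.23 for all genes kept and 0 for all genes without the filter. Scaling to equal totals moved the median over all genes kept to -0.91 and left 3 of the 10 called higher.

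Marker lists differed between the same libraries. Adipocyte markers lay above 0 for 10 of 10 genes in TELP N9 minus standard at day 7, with a median of 0.86 and sums of 33499 and 15386 RPKM. Preadipocyte markers lay below 0 for 7 of 7 genes, with a median of -1.50 and sums of 24.8 RPKM in TELP N9 and 153 in standard. At day 0 their sums were 222 and 232 RPKM. Other brown fat markers had a median of 0.66, with 8 of 22 called higher and 2 lower. The part of these in the differences of the 10 genes was not tested, and library type, culture and depth cannot be told apart with 1 library in each group.

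**Figure D4:**
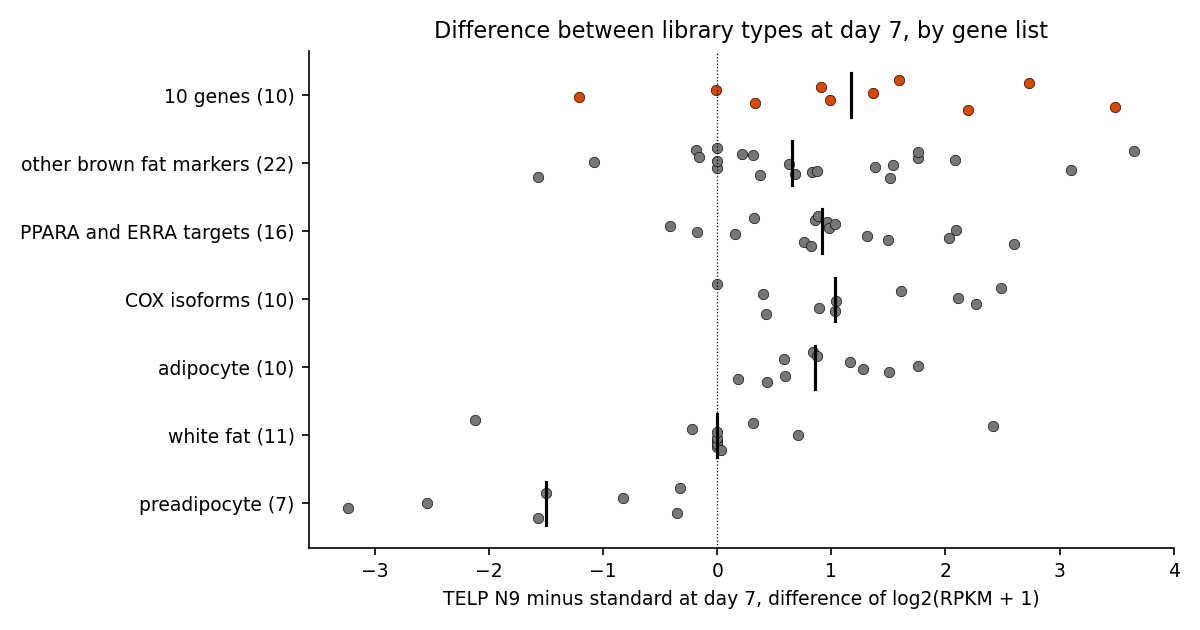
Difference of log2(RPKM + 1) between TELP N9 and standard at day 7, with 1 point per gene, the number of genes in brackets and a black bar at the median of each list, and points spread vertically only to separate them. The 10 genes have a median of 1.18, adipocyte markers lie wholly above 0 (median 0.86) and preadipocyte markers wholly below it (median -1.50).

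Against TELP N9 at day 7, the T18 library was lower for 10 of 10 genes in the deposited values. Of these genes 6 passed the filter, and 5 of the 6 were called lower. This is read against 83.4% of 9753 genes called lower and a median of -1.77 over all genes kept. The median of the 10, with no filter, was -1.65, and that of all genes without the filter was -0.14. Called lower were Esrra (-3.72), Kcnk3 (-3.31), Ppargc1b (-3.03), Ppara (-2.87) and Cox8b (-2.39). Cox7a1 differed by -0.76 log2 units and ranked 259 of 24029 genes in T18, against 624 in N9. Under scaling by median of ratios, which brings the median of all genes to -0.05, Cox7a1 was instead higher in T18, by 1.45, as it was under quantile normalization, by 1.16. Cox8b differed by -0.17 under median of ratios and was then not called.

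The genes closest in pattern were sought by Euclidean distance of log2(RPKM + 1) over 5 libraries, with N9_ss left out. This was done for the 7 genes that averaged 1 RPKM or more over the standard and TELP N9 pairs. Nearest were Itga7 to Ppargc1b (distance 0.45), Zbtb7b to Esrra (0.48), Ctcflos to Ppara (0.49), Nsl1 to Ppargc1a (0.40) and Clstn3 to Kcnk3 (0.66). Cox8b lay nearest to Adig, an adipocyte gene, at 0.79. Cox7a1 had no near neighbour, the closest being Thrsp at 1.97. Thrsp stood at 80.1 RPKM in N9 and 160 RPKM in T18 at day 7. These distances rest on 5 libraries and carry no test.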

How the data were processed

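RNA levels of 10 genes were taken from the RPKM values that the authors deposited for 6 RNA libraries. Bowtie2, TopHat, Cufflinks and mm9 are named per the submitters' processing notes. Their versions and the read total were not given in the sources used here. RPKM is scaled by the authors to gene length and read total, and a few dominant genes lower all others. RPKM was compared as log2(RPKM + 1), with a filter at a mean of 1 RPKM and a call at 1 log2 unit, a form that understates low genes. Whole reads could be recovered for 2658 of 14907 genes (17.8%, within 0.03 of a whole number, up to 60 reads), so no count test was run. The limma fit (version 3.58.1, R 4.3.3) had Benjamini-Hochberg adjustment over all genes and its default moderation of the spread. 3 other moderation settings were added after seeing the data. The calls and the limma fit were also run on simulated data to check the code. No value from that run is given, and no result here rests on it. Alternatives were the pseudocount, filters, 3 scalings and swapped libraries. Named genes were the 10, their paralogs, up to 4 called genes per list with the largest difference, and up to 2 of the highest cell type markers. The 10 genes and the lists were chosen with earlier results of these data known. The promoter table is of a build other than mm9, so its positions are not those of the deposited table. Python 3.11.15 was used.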

Additional observations from a re-analysis of the deposited data

Results flagged for a closer look

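Some effects ran in opposite directions in groups compared under the same contrast, and none of these differences was tested, since each group is 1 library. Ppargc1a was higher at day 7 in the standard libraries and slightly lower in TELP N9. The TELP N9 difference minus the standard one was -1.33 log2 units. Under median of ratios and quantile normalization the TELP N9 difference was instead above 0 (0.11 and 0.34), so the signs no longer opposed, and the value was -0.98 and -0.75. Equivalently, TELP N9 minus standard was above 0 at day 0 and below 0 at day 7 for Ppargc1a, and the later minus the earlier was again -1.33. The opposite held for Cox7a1 and Esrra, which were lower in TELP N9 than in standard at day 0 and higher at day 7. The later minus the earlier difference was 3.99 for Cox7a1 and 1.54 for Esrra. For Cox7a1 the day 0 value rests on what fits 1 read in standard and 0 in TELP N9.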

How the results depend on the processing

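The number of genes called higher at day 7 in the standard libraries (7) fell to 2 with a filter at a mean of 5 RPKM, which fewer genes pass. With T18 in place of TELP N9 at day 7, 3 of the 10 genes were called higher than at day 0 in the TELP pair, 3 in both types, and 1 against standard at day 7. In the deposited values, with T18 in place, Esrra was lower at day 7 than at day 0 (-0.78), and lower than standard at day 7 (-2.35). Ppargc1b (-1.44), Kcnk3 (-1.11) and Ppara (-1.89) were also lower than standard at day 7. Under median of ratios N9 minus standard at day 7 was 2.49 for Kcnk3 and 1.87 for Ppargc1b. T18 minus N9 was -1.42 and -1.36, so both genes then lay above standard in T18. Esrra and Ppara stayed below standard day 7, but Esrra then lay above TELP N9 day 0. Cox7a1, lower in T18 than in N9, was higher there under median of ratios (1.45) and quantile normalization (1.16). The cause was not tested. Scaling to equal totals left 3 genes higher in TELP N9 than in standard at day 7. The limma fit called 0 of the 10, against 6 called by size in both types. It also called 0 with a pseudocount of 0.1 RPKM, with median of ratios and without a filter, but 1 with a trend of the spread (Cox8b), 1 with a robust spread (Cox8b) and 2 with both (Ppargc1b and Ppara, adjusted p 0.0397 and 0.0468). Over all genes these settings called 94, 0, 0, 0, 186, 245 and 384. Of single gene differences under other settings, 249 stayed on the same side of the threshold, 8 of them with a change of sign below it, 15 passed it, 9 no longer did and 7 reversed. No paired analysis was possible because each RNA group holds 1 library with no replicate number in its label, and the block in the limma fit is the library type. At 1 read, Cox7a1 in standard day 0 and Dio2 in N9 day 7 are at the limit of depth.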
